A study of Homo sapiens with 6 samples.

Results

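The major histocompatibility region on 6p21 was examined in HiChIP data, and its contacts were taken as every listed pair of DNA segments on chromosome 6 with at least 1 end overlapping 29600000 to 33300000 of the hg19 build. A listed pair is called a loop and its ends anchors. Its strength is counted in paired-end tags (PETs), the sequenced fragments that joined both ends. The region held 3422 of 501157 distinct anchor pairs over 6 libraries. It was divided by position into class I (29600000 to 31500000, 1669 pairs), class III (31500000 to 32350000, 1629 pairs) and class II (32350000 to 33300000, 1115 pairs), and a pair that joined 2 classes was counted in both. The borders use no measured value.

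HiChIP captures contacts between distant DNA segments and enriches them for a chosen chromatin protein or histone mark. All libraries came from G401, an established line from a human rhabdoid tumour. G401 has lost SMARCB1, which belongs to the core of the chromatin remodelling complex SWI/SNF, and the cells used here carried an inducible copy of it. There were 3 groups of 2 libraries: H3K27ac at day 0 (genotype SMARCB1 -/- on the labels), H3K27ac at day 3 (SMARCB1 +/+) and ARID1A at day 3 (SMARCB1 +/+). H3K27ac is a histone mark of active promoters and enhancers, and ARID1A is a SWI/SNF subunit. SMARCB1 was induced with doxycycline at 1 μg/ml, and every group shared the same engineered line and medium. SMARCB1, doxycycline and time changed together between day 0 and day 3, and their parts cannot be told apart. Whether replicates were separate cultures is stated in no label; the p-values therefore reflect the spread between libraries alone, and this spread may be technical.

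The region is among the most gene-dense of the genome. Its class I part encodes the molecules that show peptides from inside the cell to cytotoxic T cells, and its class II part encodes those with which professional antigen-presenting cells show peptides to helper T cells, together with the machinery that loads them. Class III lies between them and holds complement components, tumour necrosis factor family cytokines, heat shock proteins and many housekeeping genes. In RefSeq's gene order (assembly GRCh38.p14), 140 protein-coding genes run from HLA-F to TAPBP. By convention they divide into 49 from HLA-F to MICB (class I) and 61 from MCCD1 to BTNL2 (class III). The last 30, from HLA-DRA to TAPBP, are class II. These groups follow gene order and were not matched to the hg19 borders of the classes. No hg19 gene annotation was used here, so anchors are named by position and no gene is assigned to one.

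Libraries held 301703 and 253502 PETs for H3K27ac at day 0, 929128 and 982141 for H3K27ac at day 3, and 435210 and 467487 for ARID1A. An end in the region was found for 2326 and 2041 of them at day 0, for 8149 and 8658 at day 3, and for 1382 and 1474 with ARID1A. Within the region, loops with a single PET made up 43.9% and 44.5% of the day 0 loops, 40.2% and 40.5% of the day 3 loops, and 65.3% and 63.2% of the ARID1A loops. Contacts in the ARID1A libraries therefore rested on the fewest PETs per loop, at 2.07 and 2.20, against 4.80 and 4.43 at day 0 and 5.93 and 6.34 at day 3.

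Anchors covered more of the region at day 3 than at day 0, and most with ARID1A. Each day 0 library listed 42 anchors covering 277.4 kb, each day 3 H3K27ac library 66 anchors covering 482.6 kb, and each ARID1A library 91 anchors covering 617.8 kb. Whole libraries rose in the same order and by more, at 8594 and 8558, 17363 and 17377, and 26283 and 26350 anchors. The region's share of anchors was therefore largest at day 0 (0.489% and 0.491%), then 0.380% and 0.380% at day 3 and 0.346% and 0.345% with ARID1A. Replicates of a group shared nearly all anchors base for base while groups did not, so the lists differ in which segments were measured at all, and a segment without an anchor in a group has no value there. After overlapping anchors (by at least 1 bp) were merged across groups, the region had 99 merged anchors. All 37 merged anchors of day 0 were also anchors at day 3 (8.72% of 7658 across the genome were not), which added 25 others to reach 62. ARID1A had 83, of which 46 coincided with a day 3 H3K27ac anchor and 37 did not (44.6%; 52.2% of 25738 across the genome).

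**Figure D1:**
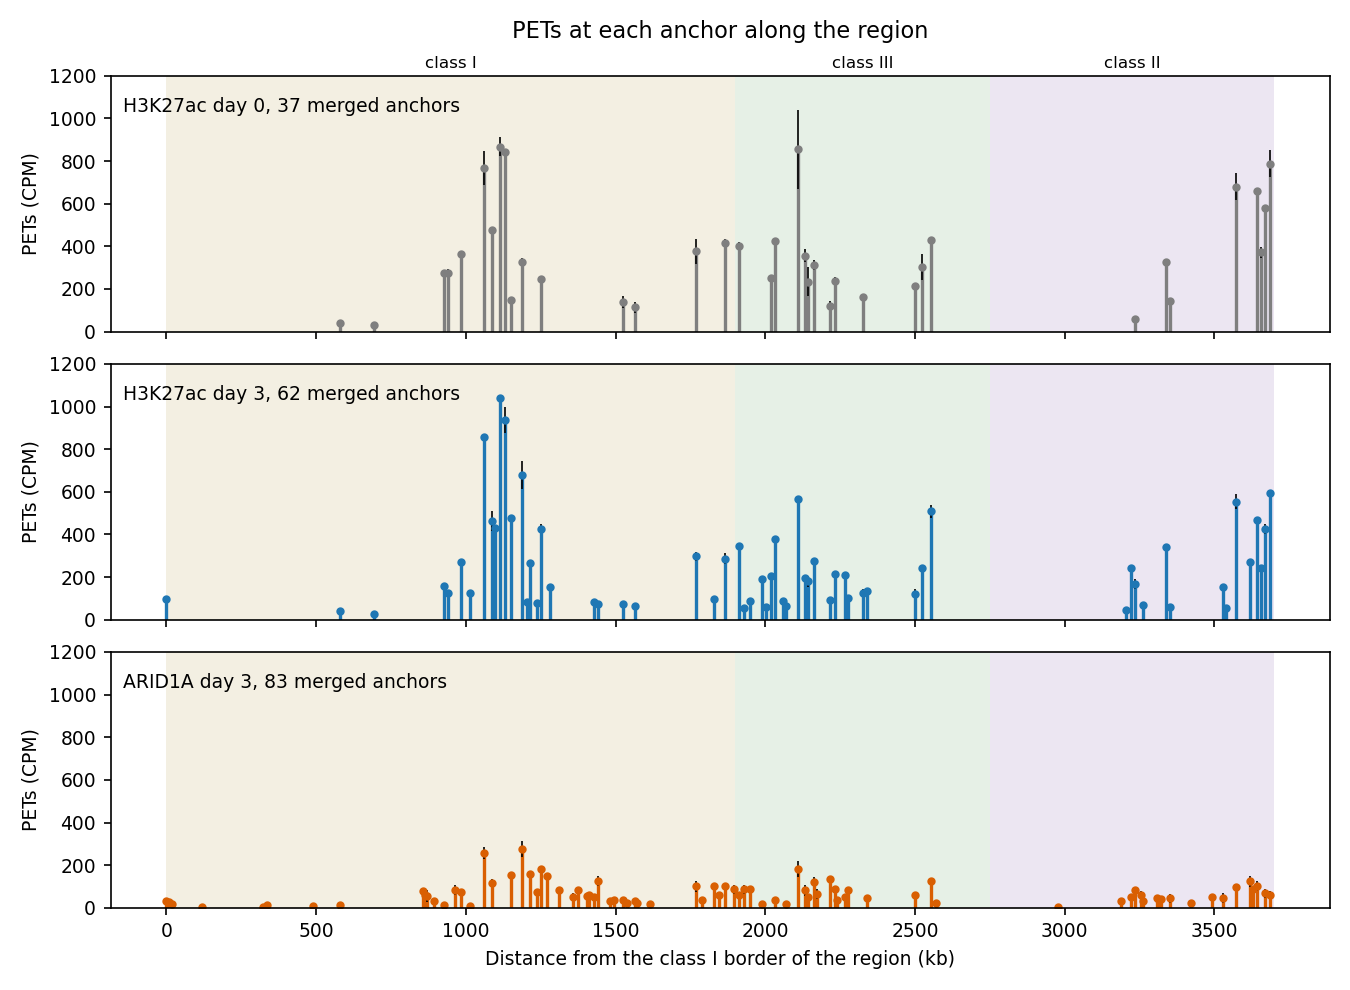
PETs in CPM, scaled to a common library total, at every merged anchor of the region, as the mean of 2 libraries with its SD (bars), against distance in kb from the class I border, for the 3 groups; shading marks class I, III and II. H3K27ac anchors cluster in a block of class I right of its middle, in class III and at the far end of class II, and the ARID1A anchors are more numerous (83) but lower.

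The anchors were unevenly spread in every group, as the plot of PETs at each anchor shows. The longest stretch without an H3K27ac anchor at either time ran from 32167119 to 32801892, 634.8 kb across the border of class III and class II. Contacts that spanned this stretch were nevertheless listed, with 105 and 110 PETs at day 0, 424 and 445 at day 3 and 57 and 32 with ARID1A. ARID1A had 3 anchors inside it, close to either end (9 and 11 PETs at chr6:32169248-32173392, 14 and 17 at chr6:32785686-32789811) and near its middle (1 PET in each library at chr6:32576657-32579224). Another long stretch, from 29602553 to 30177932 (575.4 kb) at the start of class I, also had no H3K27ac anchor at either time. It held 6 ARID1A anchors with few contacts, at 2 to 14 PETs in the first library and 1 to 10 in the second.

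The region's share of all PETs was slightly higher for H3K27ac at day 3 than at day 0 and lowest with ARID1A. It took 0.771% and 0.805% of PETs at day 0, 0.877% and 0.882% at day 3, and 0.318% and 0.315% with ARID1A. The libraries of the 3 groups did not overlap. The day 3 H3K27ac mean (0.879% ± 0.00317, SD, n = 2) was 1.12 times the day 0 mean (0.788% ± 0.0242), and the ARID1A mean (0.316% ± 0.00159) was 0.360 times the day 3 H3K27ac mean. Each difference gave p = 0.333 in a two-sided exact permutation test, the smallest p that 2 against 2 libraries allow. Counted in loops, the share was lower at day 3 (0.848% and 0.842%) than at day 0 (1.04% and 1.05%), the opposite order to that in PETs, and it was 0.425% and 0.409% with ARID1A. With only loops of a deposited value of 0.01 or less, the mean shares of PETs were 0.508%, 0.945% and 0.156%.

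Chromosome 6 as a whole differed less between the groups. It took 6.25% and 6.21% of PETs at day 0, 5.82% and 5.80% at day 3 and 5.89% and 5.89% with ARID1A. The region's part of the chromosome's PETs was 12.3% and 13.0% at day 0, 15.1% and 15.2% at day 3, and 5.39% and 5.35% with ARID1A. Per covered length, the region held 27.8 and 29.0 CPM (PETs scaled to a common library total) per kb of anchor at day 0, where the whole libraries held 15.9 and 15.9. The same values were 18.2 and 18.3 against 7.64 and 7.63 at day 3, and 5.14 and 5.10 against 4.97 and 4.96 with ARID1A. The region's H3K27ac anchors were thus denser in PETs than the library at both times, and its ARID1A anchors were close to the library's level.

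**Figure D2:**
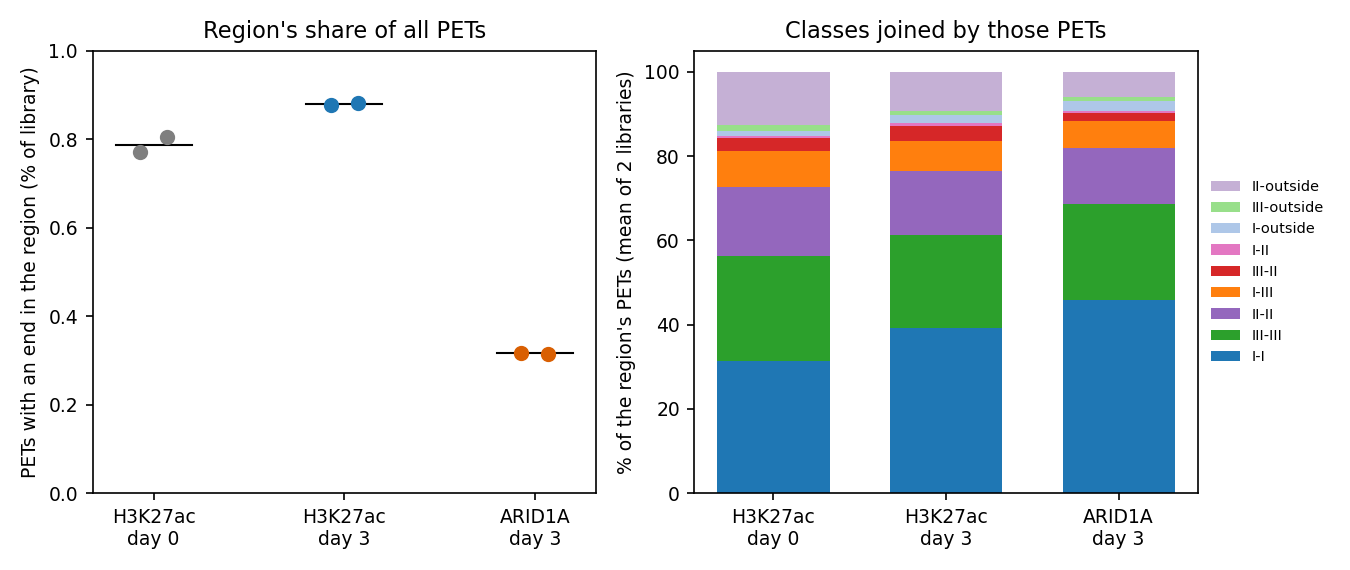
Left, percent of each library's PETs with an end in the region (points are libraries, lines group means); right, the region's PETs divided by the classes their 2 ends lie in, as means of 2 libraries. The share is 0.788% at day 0, 0.879% at day 3 and 0.316% with ARID1A, and the I-I part grows from 31.3% to 39.2% and 45.8%.

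Within the region, the class I part of the PETs was smallest at day 0 and largest with ARID1A, and the class II part ran the other way. Loops with an end in class I held 41.5% ± 0.138 of the region's PETs at day 0, 48.8% ± 0.241 at day 3 and 55.0% ± 0.0707 with ARID1A (SD, n = 2 each). The class II part was 32.8% ± 1.57, 28.5% ± 0.536 and 21.8% ± 0.296 in the same order. Libraries did not overlap between groups for either class, with exact permutation p = 0.333 for each comparison. The class III part was 38.0% ± 2.24 at day 0 and 33.9% ± 0.939 at day 3. It was 33.8% ± 0.350 with ARID1A, where libraries overlapped those of day 3 H3K27ac (exact permutation p = 1). With only loops of a deposited value of 0.01 or less, ARID1A had 75.4% of the region's PETs in class I and 4.54% in class II, on average.

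Most contacts stayed within a class. PETs with both ends in class I made up 31.3% of the region's PETs at day 0, 39.2% at day 3 and 45.8% with ARID1A, and those with both ends in class III made up 25.0%, 22.1% and 22.9%. Class I and class II, which class III separates, were joined by 10 and 12 PETs at day 0, 48 and 42 at day 3, and 10 and 3 with ARID1A. Those contacts were about 0.5% of the region's PETs in each group (0.509%, 0.537% and 0.464%). Class II was the class most often joined to DNA outside the region, with 12.7% ± 1.87 of the region's PETs at day 0, 9.28% ± 0.00636 at day 3 and 6.09% ± 0.317 with ARID1A. Contacts of the whole region with outside DNA lay mainly beyond the class II border, at 356 and 262 PETs against 21 and 25 beyond the class I border at day 0; of the former, 327 and 233 had their other end in class II.

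The first comparison asked how H3K27ac contacts in the region differed between day 3 and day 0. Anchors called at both times were compared by the PETs of loops whose ends were both called at both times, with edgeR's quasi-likelihood test across the genome and a Benjamini-Hochberg adjusted p under 0.05 as a call. PETs given beside a fold change are those of the loops so compared, unless all loops are named. Of 37 anchors tested in the region, 8 rose (21.6%; 20.7% of the 6251 anchors tested across the genome) and 12 fell (32.4%; 18.8% across the genome). The median log2 fold change was -0.12 in the region and -0.006 over all anchors. In class I, 6 of 16 anchors rose and 5 fell; in class III, 1 of 13 rose and 4 fell; and in class II, 1 of 8 rose and 3 fell.

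These folds are relative to the PETs at anchors called at both times. Scaled to whole libraries instead, which moved the median of all anchors to -0.51, 2 anchors of the region rose and 28 fell. Called width moved with the folds: all 8 anchors that rose were wider at day 3 (1.18 to 3.78 times), and 9 of the 12 that fell were narrower. Across the 37 anchors, the log2 ratio of widths and the log2 fold change had a Pearson correlation of 0.82 (Spearman 0.78), and across all 6251 anchors 0.73 (Spearman 0.68); these points share libraries and depth. With log width as an offset, 1 anchor of the region rose and 17 fell. Among the 25 with widths that differed by less than 1.5 times, none rose and 1 fell, with 3 at an unadjusted p under 0.05 in edgeR.

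**Figure D3:**
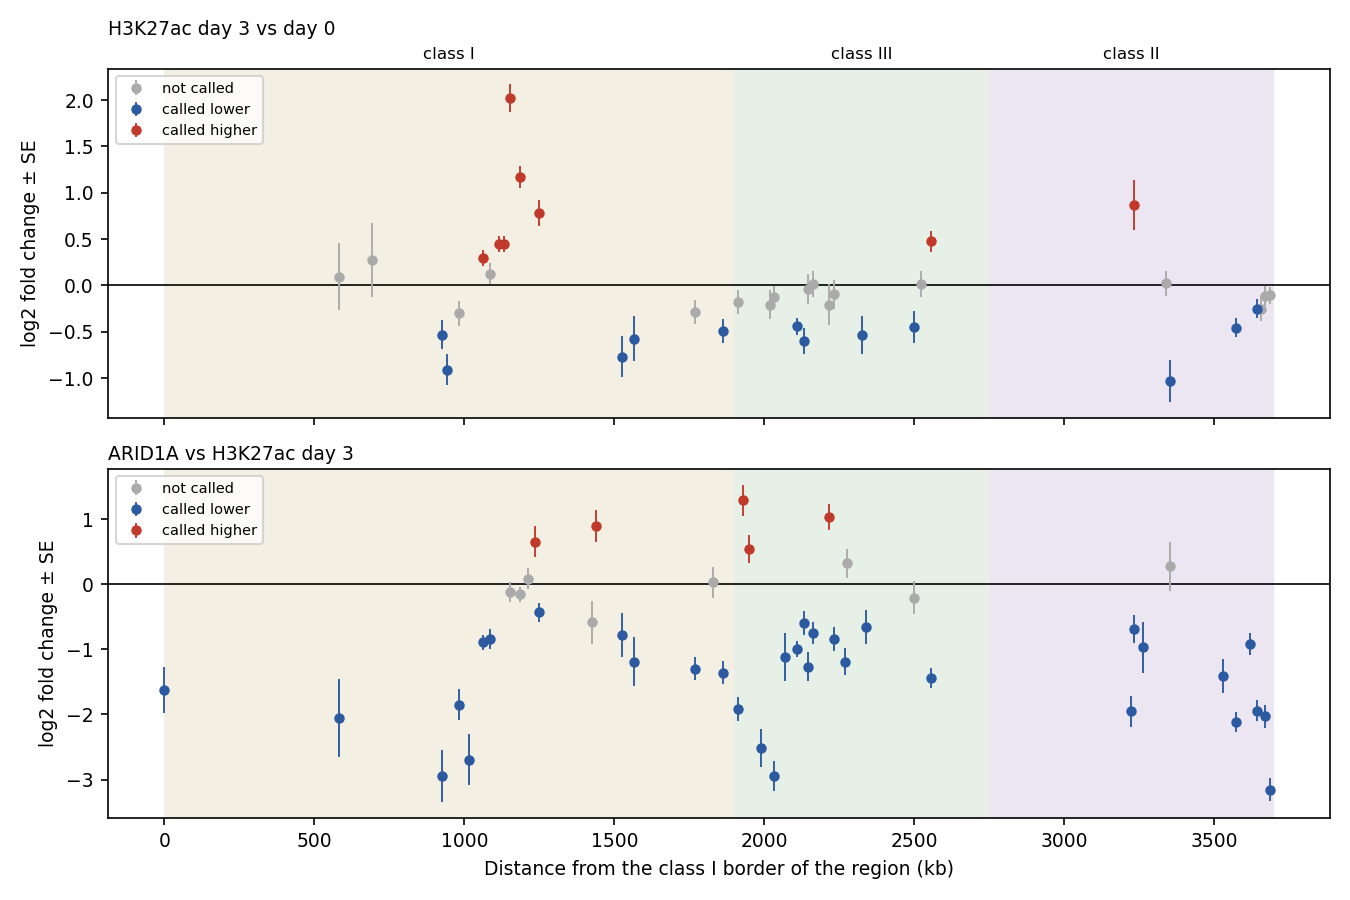
log2 fold change of PETs with its standard error for each tested anchor, against distance in kb from the class I border, for H3K27ac at day 3 against day 0 (37 anchors) and ARID1A against H3K27ac at day 3 (46 anchors); colour marks calls at an adjusted p under 0.05. In the upper panel 6 of the 8 higher anchors sit in 1 stretch of class I, with 1 anchor between them that was not called, and in the lower panel 33 of 46 are lower.

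The anchors that rose were concentrated in 1 stretch of class I, chr6:30645399-30857057 (211.7 kb), which was singled out after its values were seen. Its borders are those of the first and last class I anchors called higher, so it holds the class I anchors that rose by definition. Of its 7 anchors tested, 6 rose and none fell, and the seventh, chr6:30682530-30691300, had a log2 fold change of 0.13 ± 0.11 (SE); scaled to whole libraries, only the anchors at 30740658 and 30771799 remained higher, and that at 30645399 turned from 0.30 to -0.21. The largest fold was at chr6:30740658-30761218. Counting all its loops, it held 47 and 35 PETs at day 0, against 451 and 463 at day 3. Over the loops tested this was 109 and 96.2 CPM at day 0, against 430 and 409 at day 3, so the libraries were far apart. Its log2 fold change was 2.02 ± 0.15 (adjusted p = 7.75e-30), or 1.52 scaled to whole libraries and 0.10, no longer past the threshold, with log width as an offset. This anchor was 3738 bp wide at day 0 and 14137 bp at day 3.

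Its neighbour chr6:30771799-30801161 held 103 and 80 PETs at day 0, against 447 and 551 at day 3, in the loops tested. The log2 fold change was 1.17 ± 0.12 (adjusted p = 2.49e-18), or 0.66 scaled to whole libraries and 0.20, no longer past the threshold, with the width offset. Its called width also differed, at 12130 bp at day 0 and 23647 bp at day 3. At chr6:30842212-30857057, PETs numbered 72 and 64 at day 0 and 283 and 286 at day 3, a log2 fold change of 0.79 ± 0.14 that was 0.28 scaled to whole libraries and no longer past the threshold.

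The anchor with the most class I PETs at both H3K27ac times was chr6:30705420-30722809. Counting all its loops, it held 271 and 212 PETs at day 0, against 969 and 1015 at day 3, or 867 ± 43.8 and 1038 ± 6.69 CPM. In the fit it rose by a log2 fold change of 0.45 ± 0.08 (adjusted p = 1.47e-06), which turned to -0.06 scaled to whole libraries and to -0.31 with the width offset. The last value was past the threshold as a fall. The adjoining chr6:30724184-30739547 behaved much the same, at 0.45 ± 0.08 and -0.06 scaled to whole libraries; with the width offset it was 0.20 and still past the threshold. Together they formed the strongest class I loop of H3K27ac, with 113 and 91 PETs at day 0, against 257 and 275 at day 3. Neither had an ARID1A anchor.

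**Figure D4:**
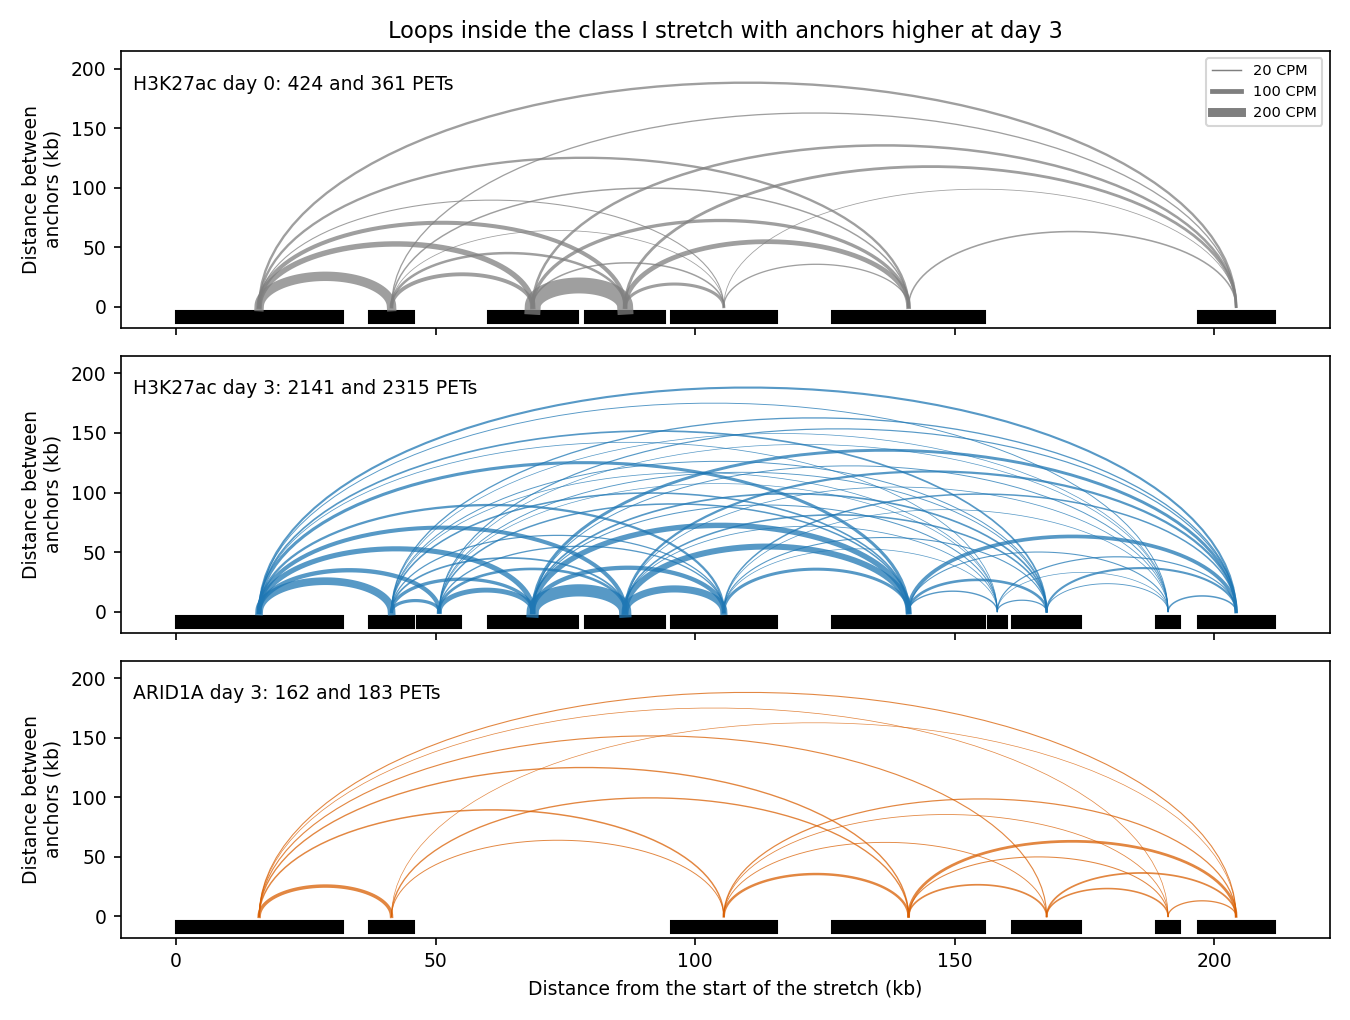
Loops with both ends inside the class I stretch, drawn as arcs whose width follows mean CPM and whose height is the distance between anchor midpoints, for the 3 groups; black bars are merged anchors called in that group. H3K27ac has 7 anchors and 424 and 361 PETs at day 0 and 11 anchors and 2141 and 2315 PETs at day 3, while ARID1A has 7 anchors and 162 and 183 PETs.

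Contacts inside this stretch took a larger part of the library at day 3. Loops with both ends in it held 1405 and 1424 CPM at day 0, 2304 and 2357 at day 3 and 372 and 391 with ARID1A. The sums cover 7 merged anchors at day 0 and 11 at day 3. Anchors called only at day 3 were not measured at day 0, and part of the larger sum lies in their loops. As a part of the region's PETs between merged anchors, this was 19.4% and 18.8%, then 27.3% and 27.8%, then 12.5% and 13.3%. The anchors of the stretch covered 66.3 kb at day 0, 135.1 kb at day 3 and 112.7 kb with ARID1A. Per covered kb the order of the 2 H3K27ac times was the opposite one, at 21.2 and 21.5 CPM at day 0 and 17.1 and 17.4 at day 3. Whole libraries, counting all PETs, also fell per covered kb, from 15.9 and 15.9 CPM at day 0 to 7.64 and 7.63 at day 3.

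The loops that rose most clearly lay in the same stretch. Their PETs are part of the anchor values above, so this is not a separate result. Across the region, 14 of 189 loops tested rose (8.3% across the genome) and 11 fell (6.8% across the genome). In class I, 12 of 82 loops rose and 3 fell, against 3 and 3 of 73 in class III and 0 and 5 of 62 in class II. The filter of 4 PETs in 2 libraries could be met by the deeper day 3 libraries alone. The 3 class III loops that rose held 0 and 0, 0 and 0, and 2 and 0 PETs at day 0. Some class I loops that rose also fell short of 4 PETs in a day 0 library. These counts therefore depend in part on the filter, which was the same across the genome. The loop from chr6:30724184-30739547 to chr6:30740658-30761218 held 20 and 13 PETs at day 0, against 144 and 154 at day 3, a log2 fold change of 1.85 ± 0.23 (adjusted p = 1.25e-13). The loop from chr6:30705420-30722809 to the same anchor held 7 and 5 PETs at day 0, against 76 and 93 at day 3, a log2 fold change of 2.48 ± 0.34. Libraries were apart in both, and both stayed past the threshold scaled to whole libraries.

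A pair of other contacts also rose. That between chr6:30771799-30801161 and chr6:30842212-30857057, 63.2 kb by midpoint, held 9 and 4 PETs at day 0, against 63 and 78 at day 3 (log2 fold change 2.11 ± 0.34). Another, between chr6:30740658-30761218 and chr6:30771799-30801161, held 5 and 4 PETs and then 53 and 57 (2.27 ± 0.40). Among 69 loops of the region whose ends differed in width by less than 1.5 times, none was called and 6 had an unadjusted p under 0.05 in edgeR. DESeq2 called 6 loops, all higher, and gave no adjusted p for 109 of the 189.

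Outside the stretch, 1 anchor each rose in class III and class II. At the class III end of the 634.8 kb stretch without H3K27ac anchors, chr6:32142054-32167119 held 127 and 110 PETs at day 0, against 414 and 385 at day 3. Its log2 fold change of 0.47 ± 0.11 (adjusted p = 2.19e-04) turned to -0.03 scaled to whole libraries. With the width offset the anchor fell past the threshold, at -0.74. It was also the anchor with the most partners at day 3, joined to 59 and 63 other anchors in the 2 libraries. In class II, chr6:32826126-32842122 held 18 and 14 PETs at day 0, against 63 and 79 at day 3, a log2 fold change of 0.87 ± 0.27. It was 0.37 scaled to whole libraries, no longer past the threshold. With the width offset it turned to -0.82, a fall past the threshold. The anchor's called width was 3543 bp at day 0 and 11412 bp at day 3.

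The anchors that fell lay on both sides of the class I stretch and through class III and class II. At chr6:30537190-30544303, PETs of the loops tested numbered 80 and 73 at day 0 and 86 and 112 at day 3, a small difference in count while the libraries were deeper. The log2 fold change was -0.91 ± 0.16 (adjusted p = 8.04e-07); with only loops of a deposited value of 0.01 or less it turned to 0.39. Its called width was 7113 bp at day 0, against 3810 bp at day 3. With the width offset the log2 fold change was -0.007 (edgeR adjusted p = 0.979). The largest fall was in class II, at chr6:32946390-32955601, with 42 and 38 PETs at day 0, against 47 and 48 at day 3 (log2 fold change -1.03 ± 0.23, adjusted p = 5.95e-05). It stayed past the threshold with the width offset (-0.88) and was the 1 anchor called among those of similar width (-0.71).

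In class III, the anchor with the most PETs in all 3 groups, chr6:31695447-31723031, fell by a log2 fold change of 0.44 ± 0.10, with 218 and 250 PETs at day 0, against 424 and 413 at day 3. Its neighbour chr6:31727826-31734076 had 101 and 96 PETs and then 165 and 151 (log2 fold change -0.60 ± 0.14). The loop between them, 21.7 kb between midpoints, had 53 and 48 PETs at day 0, against 77 and 63 at day 3 and fell by 0.85 ± 0.20 on the log2 scale. In class I, chr6:31459219-31468314 had 121 and 109 PETs and then 204 and 193 (-0.49 ± 0.13), and in class II, chr6:33164468-33179364 had 219 and 158 and then 305 and 362 (-0.46 ± 0.10). All of these had libraries that did not overlap in CPM. With the width offset, 31695447 (-0.09) and 31459219 (-0.25) were no longer past the threshold. Leaving out 1 library ended the call at 31695447 (-0.23 without the second day 0 library), 33164468 (-0.32 without the first day 0 library), 31459219 (-0.36 without the second day 3 library) and the loop (-0.49 without the second day 3 library).

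The 11 loops that fell spanned 11.9 to 140.2 kb by midpoint. The loop from chr6:30521615-30529399 to chr6:30537190-30544303 had 29 and 28 PETs before and 25 and 35 at day 3 (log2 fold change -1.24 ± 0.27, adjusted p = 1.41e-04). Between chr6:30537190-30544303 and chr6:30577091-30588409 there were 17 and 13 and then 13 and 9 (-1.75 ± 0.42). In class II, the loop from chr6:32933092-32945098 to chr6:32946390-32955601 had 24 and 24 and then 25 and 27 (-1.20 ± 0.30). In these 3 the PETs at day 3 were about as many as at day 0 or fewer, although the day 3 libraries were deeper. The first was no longer called without the first day 3 library (-0.89), and the second without the first day 0 library (-1.66). DESeq2 called none of the 3.

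The 25 day 3 anchors without a day 0 counterpart were 40.3% of the 62 (56.8% of 16175 across the genome) and were spread over the classes, at 10 of 26 in class I, 9 of 22 in class III and 6 of 14 in class II. They held 20.7% and 21.1% of the PETs at the region's day 3 anchors, with a median of 89 and 94 PETs per anchor against 257 and 264 for those also called at day 0. The one with most PETs, chr6:30691870-30700342, lay inside the class I stretch and had 394 and 424 PETs at day 3 and no ARID1A anchor. The others with most PETs were chr6:33214586-33221840 in class II (247 and 269), chr6:30806436-30819755 in class I (243 and 262) and chr6:32817663-32824668 in class II (222 and 241). No fold is given for these, since they were not measured at day 0.

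The second comparison set ARID1A contacts against H3K27ac contacts at day 3, in cells with SMARCB1. It shares the day 3 H3K27ac libraries with the first, so the 2 are not independent. Antibody is the difference between these groups, and a level of ARID1A and a level of H3K27ac are different quantities, so the folds describe the distribution of contacts over anchors called in both. Of 46 anchors tested in the region, 33 were lower with ARID1A (71.7%; 32.5% of 11052 across the genome) and 5 were higher (10.9%; 31.5% across the genome). The median log2 fold change was -0.94 in the region and -0.05 over all anchors. Every class had a negative median, at -0.84 in class I (12 of 19 lower), -0.84 in class III (12 of 17) and -1.68 in class II (9 of 10).

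Scaled to whole libraries, which moved the median of all anchors to -0.66, 39 anchors of the region were lower and 2 higher. With log width as an offset the numbers were 38 and 0, and among the 26 of similar width 17 and 2. The anchors called lower were of both kinds, 15 wider and 16 narrower with ARID1A (0.336 to 1.91 times), while all 5 called higher were wider (1.33 to 3.57 times). The Pearson correlation of the log2 width ratio with the log2 fold change was 0.78 over the 46 anchors (Spearman 0.74) and 0.68 over all 11052 (Spearman 0.67).

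**Figure D5:**
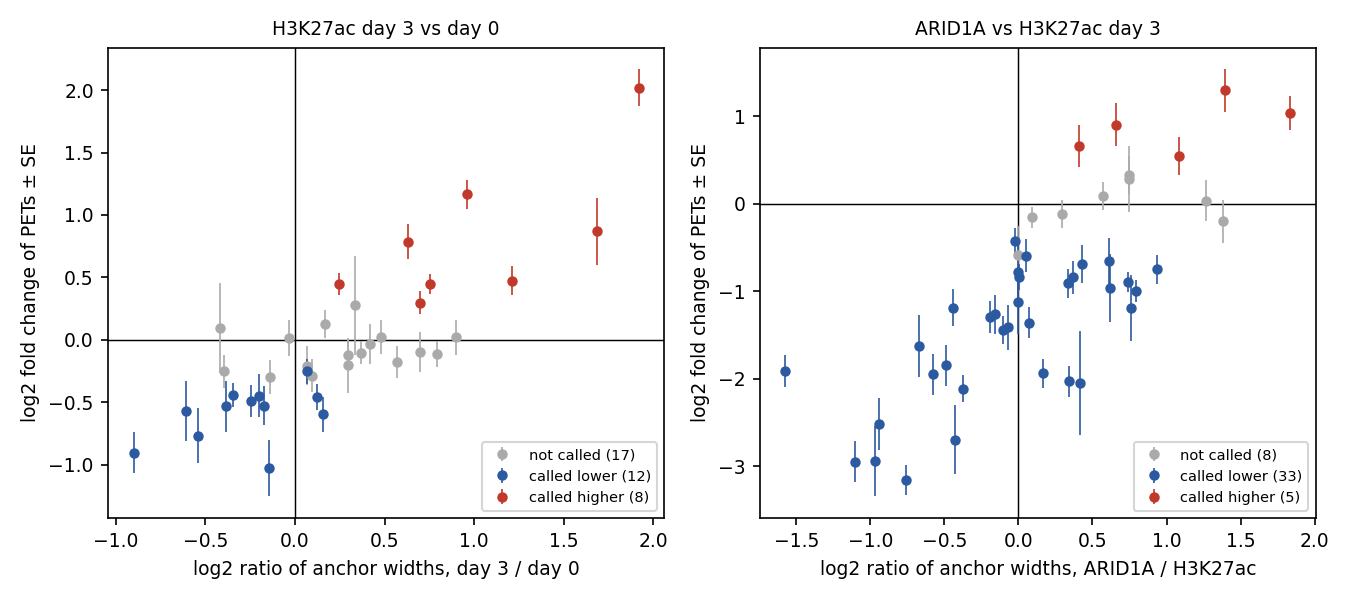
log2 fold change of PETs with its standard error against the log2 ratio of called anchor widths, for the region's anchors tested in each comparison; colour marks calls, with their number in the legend. In both comparisons every anchor called higher is wider in the group where it is higher; in the second, anchors of equal width are mostly below 0.

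The strongest H3K27ac anchors at the far end of class II were among those lower with ARID1A relative to H3K27ac. At chr6:33277256-33294851, the class II anchor with the most PETs in H3K27ac, loops between anchors called in both groups held 491 and 522 PETs with H3K27ac and 14 and 21 with ARID1A. The log2 fold change was -3.16 ± 0.17 (adjusted p = 1.19e-70), and -2.39 with the width offset. Within 114.1 kb of it by midpoint, chr6:33164468-33179364 had 402 and 485 PETs against 30 and 33 (-2.12 ± 0.15), chr6:33263296-33274069 had 345 and 331 against 17 and 34 (-2.03 ± 0.17), and chr6:33235722-33249401 had 361 and 398 against 26 and 35 (-1.94 ± 0.16). The last 3 were also lower among anchors of similar width, at -1.82, -1.28 and -1.40. Libraries of the 2 groups were far apart at all 4 anchors. Counting all loops, ARID1A PETs numbered 20 and 34 at 33277256 and 41 and 47 at 33164468. They numbered 23 and 39 at 33263296 and 37 and 55 at 33235722. The medians over the region's ARID1A anchors were 23 and 26, so these anchors were low relative to H3K27ac and not among ARID1A anchors.

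In class III the largest difference was at chr6:31626409-31635727, with 266 and 261 PETs for H3K27ac and 10 and 11 for ARID1A (log2 fold change -2.95 ± 0.23, adjusted p = 4.53e-35). At chr6:31505762-31520718, PETs numbered 275 and 299 against 25 and 22 (-1.91 ± 0.18). That anchor was 13971 bp wide for H3K27ac and 4694 bp for ARID1A, and with the width offset its value was -0.34 and no longer past the threshold. With the same offset the anchor at 31626409 stayed lower, at -1.85.

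Anchors higher with ARID1A were few and all in class I or class III. The largest was chr6:31525848-31534848 in class III, with 27 and 42 PETs for ARID1A and 47 and 44 for H3K27ac in libraries of greater depth. Its log2 fold change was 1.29 ± 0.24 (adjusted p = 3.73e-07). At chr6:31806247-31822822, PETs numbered 49 and 51 for ARID1A and 83 and 75 for H3K27ac (1.03 ± 0.20). The others were chr6:31035562-31044005 (0.90 ± 0.25), chr6:30834196-30838849 (0.66 ± 0.24) and chr6:31543682-31555779 (0.54 ± 0.22). With the width offset the first, the second and the last turned to -0.10, -0.80 and -0.54. Of these, the second and the last were lower past the threshold. The remaining anchors were 0.24 and 0.25 with that offset, below the threshold. Scaled to whole libraries the last turned to -0.07, and those at 31035562 and 30834196 were 0.29 and 0.05, below the threshold. Leaving out 1 library ended the call at 31035562 (0.46 without the second ARID1A library), and at 30834196 and 31543682 it did so without either H3K27ac library or the first ARID1A library (0.42 to 0.47 and 0.26 to 0.46).

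Loops, whose PETs make up the anchor values, were also more often lower than higher. The filter of 4 PETs in 2 libraries could be met by the H3K27ac libraries alone, which were deeper. Loops kept through H3K27ac alone hold few ARID1A PETs, so the calls and the median depend in part on the filter. The same filter was applied across the genome. Of 214 tested in the region, 84 were lower with ARID1A (39.3%; 18.7% of 28338 across the genome) and 7 were higher (3.27%; 14.6% across the genome), with a median log2 fold change of -1.87 against -0.49 over all loops. In class II 39 of 64 were lower and none higher, against 34 and 4 of 94 in class III and 24 and 3 of 83 in class I. The count depended on depth and test. Leaving out 1 H3K27ac library left 65 loops past the filter, and leaving out 1 ARID1A library left 213. With no filter on low counts edgeR called none, with 166 of 1038 at an unadjusted p under 0.05. DESeq2 called 28.

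The strongest class II loop of H3K27ac, from chr6:33263296-33274069 to chr6:33277256-33294851, had 42 and 43 PETs at day 0, 106 and 119 at day 3, and 0 and 4 with ARID1A. Its log2 fold change with ARID1A was -4.12 ± 0.42 (adjusted p = 2.51e-20). The contact of chr6:33277256-33294851 with chr6:33391941-33400547, just beyond the class II border, had 29 and 31 PETs with H3K27ac and none with ARID1A. It was at least 6.02-fold lower, taking 3 PETs over the ARID1A group as the floor, and passed the filter through H3K27ac alone. Between chr6:33235722-33249401 and chr6:33277256-33294851 there were 72 and 76 against 3 and 6 (-2.37 ± 0.38). Across the border of class I and class III, the loop from chr6:31459219-31468314 to chr6:31505762-31520718 had 58 and 51 against 1 and 4 (-2.76 ± 0.47). None of the loops named here held 4 PETs in both ARID1A libraries, so the H3K27ac libraries carried each of them past the filter.

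Loops higher with ARID1A rested on few PETs. The loop from chr6:31525848-31534848 to chr6:31543682-31555779 had 7 and 12 PETs with ARID1A and 4 and 3 with H3K27ac (log2 fold change 3.03 ± 0.65, adjusted p = 3.36e-05). It reached the filter's 4 PETs in both ARID1A libraries but not in the second H3K27ac library. Between chr6:30806436-30819755 and chr6:30834196-30838849 there were 12 and 9 against 7 and 5 (2.43 ± 0.55). The loop from chr6:31806247-31822822 to chr6:31872796-31881652 had 6 and 4 against 1 and 2, and passed the filter through ARID1A alone. Its ratio was 11.1, with a 95% exact interval of 2.85 to 62.7 that covers counting error only. Another, from chr6:30771799-30801161 to chr6:31035562-31044005 (253.3 kb), had 6 and 15 against 9 and 7 (2.02 ± 0.51). Leaving out 1 library ended the call of the last 2: the third was 2.43 and 3.25 without the first or the second H3K27ac library, and the fourth 1.37 without the second H3K27ac library and 1.35 without the second ARID1A library.

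ARID1A anchors were more often without an H3K27ac counterpart in class I and class II than in class III. They numbered 25 of 44 in class I (56.8%), 9 of 19 in class II (47.4%) and 3 of 20 in class III (15.0%), beside 52.2% across the genome; this difference between classes was not tested. The 37 held 30.8% and 29.2% of the PETs at the region's ARID1A anchors, with a median of 18 and 17 PETs per anchor against 35.5 and 36 for those with a counterpart. Of the 25 in class I, 14 lay from the end of the class I stretch to the class III border. The one with most PETs, chr6:30865179-30877481 (12302 bp wide), adjoined the stretch and held 69 and 64 PETs. Next came chr6:31492370-31501212 (31 and 48), chr6:33225742-33230951 in class II (43 and 35) and chr6:30969857-30979496 (34 and 42).

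The reverse also occurred. Of the 62 day 3 H3K27ac anchors, 16 (25.8%; 23.9% of 16175 across the genome) had no ARID1A counterpart, and they held 26.5% and 26.6% of the PETs at the region's H3K27ac anchors. They included the 3 H3K27ac anchors at 30691870, 30705420 and 30724184 in the class I stretch, which lie side by side and held 394 and 424, 969 and 1015, and 831 and 961 PETs at day 3. In class II the one with most PETs was chr6:32933092-32945098 (322 and 334). The ARID1A anchor with most PETs, chr6:30771799-30801161 (108 and 142), lay in the same class I stretch and was shared with H3K27ac (586 and 712 at day 3, all loops counted in both); its log2 fold change was -0.15 ± 0.12 (adjusted p = 0.256). In class II the leading ARID1A anchor was chr6:33214586-33221840 (62 and 49), 1 of those with an H3K27ac anchor at day 3 and none at day 0.

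The number of PETs per anchor was higher in the region than over the libraries for H3K27ac, while for ARID1A the order depended on the summary used. Merged anchors of the region held a mean of 108 and 96.0 PETs at day 0 against 68.0 and 57.4 over all anchors, and 237 and 252 against 108 and 114 at day 3. With ARID1A the means were 29.8 and 31.6 in the region and 32.6 and 35.0 over all anchors. The medians with ARID1A ran the other way, at 23 and 26 in the region and 19 and 20 over all anchors. For H3K27ac they were 96 and 85 against 28 and 24 at day 0, and 161 and 185 against 51 and 54 at day 3. Anchors had a median of 20 and 19 partners at day 0, 33 and 33 at day 3 and 12 and 12 with ARID1A. These are descriptions of 2 libraries a group, and depth differed between the groups.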

How the data were processed

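Chromatin contacts had been measured by HiChIP in 6 libraries, sequenced as paired reads of 150 bp per the labels' protocols. The submitters' processing notes name HiC-Pro, Bowtie2 and hg19, without versions. Which program called the loops, and with which settings, is not given in the sources used here. The deposited files list loops with a raw count of PETs that the authors did not normalise. They also hold a deposited value from 0 to 1, a p-value or q-value whose kind no header states, used only as a threshold of 0.01 in an alternative. Coordinates are printed as listed; whether they count from 0 or 1 is not stated.

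Python 3.11.15 (pandas 2.3.3, numpy 2.4.6) was used to merge anchors of any library with an overlap of at least 1 bp, and PETs between the same merged anchors were summed. PETs of loops whose 2 anchors were called in each compared group were tested across the genome with edgeR 4.0.16 in R 4.3.3 (glmQLFit and glmQLFTest, TMM). The filter kept loops with at least 4 PETs, and anchors with at least 10, in at least 2 libraries. These could be the 2 libraries of 1 group. A call had a Benjamini-Hochberg adjusted p under 0.05 over all features tested. DESeq2 1.42.0 was an alternative, and the fit was tested on simulated data. Named anchors and loops are, per comparison and direction, up to 6 anchors and 4 loops ranked by p, among calls with groups that do not overlap. For this rule, PETs were scaled to the summed counts of the features compared, not to whole-library totals. Also named are the leading anchor and loop per class and group and the 4 leading anchors without a counterpart. Two-sided exact permutation tests compared shares. The region, its classes and these rules were chosen with earlier results of these data known. Whole-library shares use all listed PETs.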

Additional observations from a re-analysis of the deposited data

How the results depend on the processing

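Shares kept their direction under all alternatives run except these. With loops as the unit, the region's share at day 3 minus day 0 was -0.197 percentage points and the class II share 1.01. The class III share with ARID1A minus day 3 H3K27ac was 1.31 with both anchors inside, and ranged from -0.807 to 0.521 when 1 library was left out. With loops of a deposited value of 0.01 or less, differences in the region's share were 0.436 and -0.789, and with ARID1A class I was 21.8 higher and class II -25.8. For the 20 anchor calls of day 3 against day 0, DESeq2 gave 11 (6 higher), all regions 50 (32 higher), similar width 1, a deposited value of 0.01 or less 15 (12 higher, 3 lower) and leaving out 1 library 14 to 18. For the 38 of ARID1A, all regions gave 85 (31 higher), similar width 19, a deposited value of 0.01 or less 25 and leaving out 1 library 30 to 33. The 25 loop calls of day 3 against day 0 (14 higher) became 6 with DESeq2, 15 with edgeR's newer quasi-likelihood method, 195 over all regions, 0 at similar width (6 at an unadjusted p under 0.05), 42 with a deposited value of 0.01 or less (40 higher, 2 lower), 3 when libraries were thinned to 253502 PETs, and 11 to 14 without 1 library. They were 37 scaled to library totals, of which 8 were higher and 29 lower, and 18 with no filter, of which 16 were higher. The 91 loop calls of ARID1A became 139 with library totals, 28 with DESeq2, 56 with the newer method, 0 with no filter (166 at an unadjusted p under 0.05), 239 over all regions, 17 at similar width, 58 with a deposited value of 0.01 or less, 16 when thinned and 22 to 28 without 1 library. Calls over all regions count segments not measured in a group. The cause of the other changes was not tested.

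Replicate numbers are shared across groups, but same-numbered libraries did not deviate together (correlation 0.0126 over anchors in both comparisons), so the numbers were not taken as pairs. With the replicate block, anchor calls were 20 and 38, as without it, and loop calls 21 and 48.

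Single anchors changed direction as follows. Scaled to library totals, 30705420 was -0.058, 30724184 -0.058 and 32142054 -0.030 at day 3 against day 0, and 31543682 was -0.069 with ARID1A. With the width offset, 30705420 was -0.31 and 32142054 -0.74, and with ARID1A 31525848 was -0.10, 31806247 -0.80 and 31543682 -0.54. With a deposited value of 0.01 or less, 30537190 was 0.39. Joining anchors only at 50% overlap, which was run for the counts and not for single anchors or shares, gave 19 and 39 anchors and 24 and 98 loops. Of 724 and 1038 loops of the region, 189 and 214 held enough PETs to pass the filter. Among anchors higher at day 3 that the naming rule left out, 30645399 was -0.21 and 32826126 0.37 scaled to library totals, and -0.40 and -0.82 with the width offset. Both were past the threshold with the width offset, and 30645399 also was when scaled to library totals.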
